A study of Mus musculus with 10 samples.

Results

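Outer hair cells amplify sound mechanically, and their hair bundles are built from actin-filled stereocilia, so a group of 10 genes known for these structures was followed across all cochlear libraries. They were chosen by name: Slc26a5, Ocm, Strc, Espn, Myo15, Whrn, Eps8, Loxhd1, Triobp and Myo6. Each name matched 1 row among the 54532 genes of the count files, and all 10 passed the filter on low counts that left 18329 genes for testing. The cochleae came from mtKeima mice, 12 months old, which carry a transgenic mitochondrial Keima reporter on a mixed background; per the methods the strain was wild type for the cadherin 23 hearing loss allele and for the Nnt mutation. The NR-treated group (5 mice) was given nicotinamide riboside, a precursor of NAD+, in the drinking water at 7 mg/ml (24 mM), beginning when mice were 2 months old and lasting 10 months. The non-treated group (Vehicle, 5 mice) had regular water, and no other agent is named for either group. Each library held the whole cochlea of 1 mouse, so hair cells were a small part of the tissue sampled.

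Total counts ranged from 17060379 to 24419230 per library. The labels call the mice female and the methods call them male, and in all 10 libraries the Y-linked genes Ddx3y, Uty, Kdm5d and Eif2s3y were counted at 24.3 CPM (counts scaled to library size by the TMM method) or more while Xist, which is transcribed from the inactive X, did not exceed 0.405 CPM. Hair cell RNA was present in each library: none of the 6 general hair cell markers (Myo7a, Pou4f3, Gfi1, Tmc1, Lhfpl5 and Grxcr1) was at 0 in any mouse. The libraries of Vehicle 3 and Vehicle 4 stood apart, with a summed level of these 6 markers of 132 to 148 CPM against 67.9 to 89.5 CPM in the other 8. Group differences are therefore also given without them. Correlations among the 10 genes are given without them alone, while the search for genes most like Slc26a5 used all 10 mice. NR 3 and NR 5 stood apart in another way, with summed skeletal muscle markers of 632 and 444 CPM against 13.3 to 73.2 CPM elsewhere.

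The outer hair cell changes its length when its membrane potential changes, through prestin, the protein of Slc26a5, and it buffers calcium with oncomodulin, the protein of Ocm. Its stereocilia are joined to each other and to the tectorial membrane by stereocilin, from Strc, and are filled with parallel actin that espin, from Espn, cross-links. Growth at the stereocilia tips depends on the motor Myo15, which carries the scaffold whirlin (Whrn) and the actin regulator Eps8, while the rootlet that anchors each stereocilium needs Triobp and the apical membrane at its base needs the minus-end motor Myo6. Loxhd1 encodes a membrane-associated protein that mature hair cells need for mechanotransduction. Several of these genes, among them Eps8, Triobp, Myo6 and Whrn, are also used by cells without hair bundles, whereas Slc26a5, Ocm, Strc, Myo15 and Loxhd1 are known in the cochlea mainly from hair cells.

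Most of the genes had their highest levels in the same 2 mice, Vehicle 3 and 4, and the sequence upstream of 3 genes is given. These are Slc26a5, which varied most, Myo15, a gene with its highest levels in Vehicle 3 and 4, and Whrn, which did not share that pattern. Whether an upstream element had a part in it was not tested. Each is the 250 bases before the RefSeq start on the gene's own strand in GRCm38.p6, free of annotated exons. They lie at chr5:21865605-21865854 (minus strand), chr11:60469089-60469338 (plus strand) and chr4:63495992-63496241 (minus strand). Both strands were searched for the E-boxes CAGCTG and CAGATG, the X-box element GTTGCC, the homeodomain core TAATTA and TATAAA, and letters of a match are in capitals.
Slc26a5: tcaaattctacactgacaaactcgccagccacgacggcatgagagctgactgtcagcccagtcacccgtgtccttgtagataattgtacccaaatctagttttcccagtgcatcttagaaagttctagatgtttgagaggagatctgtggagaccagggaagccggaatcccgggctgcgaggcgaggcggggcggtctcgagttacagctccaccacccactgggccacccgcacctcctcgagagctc
Myo15: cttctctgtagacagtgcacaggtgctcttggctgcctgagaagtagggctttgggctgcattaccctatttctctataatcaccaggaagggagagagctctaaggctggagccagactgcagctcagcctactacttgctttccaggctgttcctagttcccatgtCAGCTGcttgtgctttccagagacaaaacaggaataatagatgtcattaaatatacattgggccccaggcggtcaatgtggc
Whrn: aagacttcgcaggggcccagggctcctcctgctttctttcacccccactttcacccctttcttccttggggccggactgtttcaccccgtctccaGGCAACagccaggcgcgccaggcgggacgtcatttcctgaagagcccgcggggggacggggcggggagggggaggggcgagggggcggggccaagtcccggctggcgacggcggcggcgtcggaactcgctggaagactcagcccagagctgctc

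The Slc26a5 stretch, 56.0% G and C, held none of the 5 motifs. That of Myo15, 49.6% G and C, held CAGCTG with its first base 82 before the start, a motif found in 13.1% of 32536 different promoter windows of this length. In the Whrn stretch, 69.6% G and C, GTTGCC stood on the opposite strand, as GGCAAC, from 155 before the start, and 10.3% of the windows held it. The other motifs were found in 14.4% (CAGATG), 4.84% (TAATTA) and 12.3% (TATAAA) of the windows. A match describes the letters alone. RefSeq windows were at hand for 8 of the 10 genes, all but Eps8 and Loxhd1, and that of Ocm began outside the gene model counted in these files.

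The comparison of NR-treated with non-treated mice asks whether 10 months of NR went along with a different amount of outer hair cell and hair bundle RNA at 12 months. The level of Loxhd1 was lower in NR-treated mice, at 12.9 ± 2.44 against 24.2 ± 13.2 CPM (SD, n = 5 each), and it alone of the 10 genes reached an unadjusted p of 0.05. The other 9 did not, although 8 of them also had a lower fitted level under NR; Whrn had a log2 fold change of 0.04. The size of the difference depended on Vehicle 3 and 4, which were the 2 highest of all 10 mice in 8 of the 10 genes, all but Whrn and Eps8. Fewer hair cells, less RNA per hair cell and a different mix of tissue in the library cannot be told apart in such bulk libraries.

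In numbers, 1 of 10 genes was lower at an unadjusted p of 0.05 in edgeR's quasi-likelihood test, where 4.88% of all tested genes were, and 0 were higher, where 4.83% of all tested genes were. At an adjusted p of 0.05 there were 0 among the 10 and 0% among all genes; DESeq2 called 53 higher and 52 lower genes at that level and 0 of the 10. The median log2 fold change was -0.39 over the 10 genes and -0.009 over all tested genes, of which 52.9% had a fitted level lower under NR. In 0 of the 10 did the 2 groups separate without overlap, as they did for 0.867% of all genes in the lower and 0.775% in the higher direction. Left without Vehicle 3 and Vehicle 4, the same test gave 0 lower and 2 higher genes, Slc26a5 and Triobp, where 5.58% of all tested genes were lower and 4.11% higher, and a median log2 fold change of 0.08. These 2 mice were set apart for their high hair cell markers. Leaving them out therefore lowers the Vehicle level of genes with the same pattern, and the higher calls are no independent result.

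**Figure D1:**
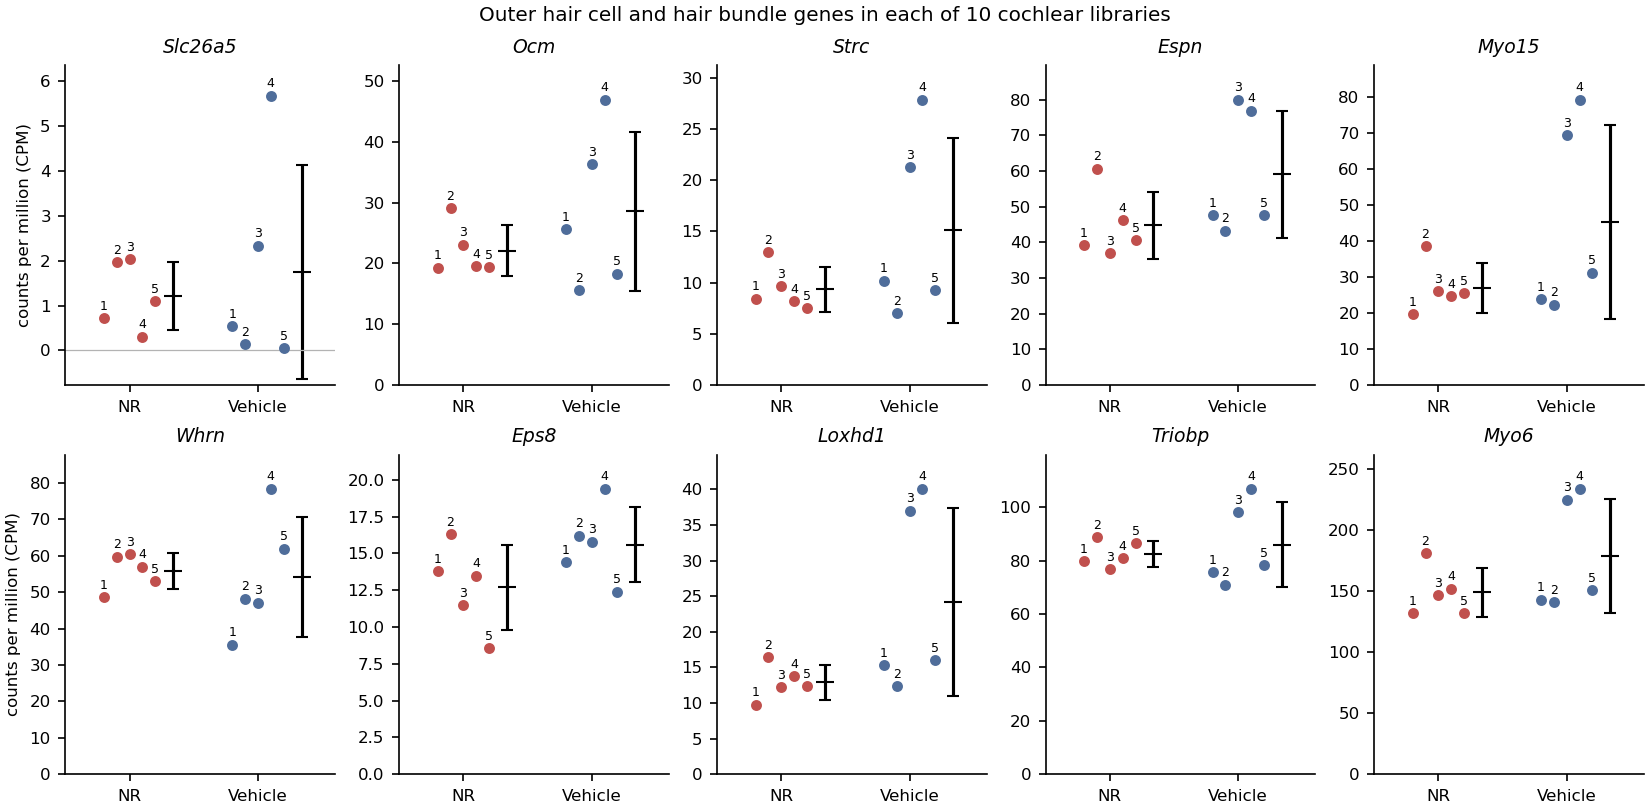
Level of each of the 10 genes in CPM (linear axis) in every mouse, with NR-treated mice in red, Vehicle mice in blue, the replicate number above each point and the group mean ± SD in black. Vehicle 3 and 4 are the 2 highest points in 8 panels; in the Whrn and Eps8 panels they are not, with Vehicle 3 at 47.1 CPM of Whrn.

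Slc26a5, the prestin gene, had the widest spread of all 10. Its level was 0.722, 1.97, 2.03, 0.305 and 1.10 CPM in NR 1 to 5. In Vehicle 1 to 5 it was 0.545, 0.135, 2.34, 5.68 and 0.0464 CPM. The groups overlapped fully, since Vehicle mice were both the highest and the lowest of all 10, and the level spanned a factor of 122 in the Vehicle and 6.65 in the NR-treated group. These levels rest on few reads, from 1 in Vehicle 5 and 3 in Vehicle 2 to 129 in Vehicle 4. The group means were 1.22 ± 0.761 and 1.75 ± 2.39 CPM (SD, n = 5 each), and the fitted log2 fold change was -0.52 with a 95% interval from -2.57 to 1.53 (edgeR, unadjusted p = 0.587, adjusted p = 0.867). On the scale of mean log2 CPM, where a single high mouse weighs less, the difference had the opposite sign, 0.52 (two-sided exact permutation test, p = 0.627). Without Vehicle 3 and Vehicle 4 the edgeR log2 fold change was 2.38 (unadjusted p = 0.0164), and without Vehicle 4 alone it was 0.64 (unadjusted p = 0.474). In the first of these fits the remaining Vehicle mice had 11, 3 and 1 reads.

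Ocm, which encodes the calcium-binding protein oncomodulin, was far steadier. NR 1 to 5 had 19.3, 29.1, 23.1, 19.5 and 19.4 CPM. Vehicle 1 to 5 had 25.7, 15.6, 36.4, 47.0 and 18.3 CPM. The highest 2 mice were Vehicle 3 and 4 and the lowest 2 were also Vehicle mice, so that the NR-treated mice all lay inside the Vehicle range. The means were 22.1 ± 4.23 and 28.6 ± 13.1 CPM (SD, n = 5 each), a log2 fold change of -0.37 with a 95% interval from -0.98 to 0.24 (edgeR, unadjusted p = 0.205, adjusted p = 0.675). It was 0.16 without Vehicle 3 and 4 (unadjusted p = 0.415).

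The 2 genes therefore did not keep a fixed ratio, although both mark outer hair cells. Of the reads on either gene, Slc26a5 took 3.61%, 6.33%, 8.09%, 1.54% and 5.35% in NR 1 to 5. In Vehicle 1 to 5 its share was 2.08%, 0.852%, 6.05%, 10.8% and 0.253%. The exact 95% binomial interval, which covers counting error only, ran from 0.00641% to 1.40% in Vehicle 5 and from 9.08% to 12.7% in Vehicle 4, so the difference between these 2 mice exceeded counting error. Neither group stood to one side of the other in this share.

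**Figure D2:**
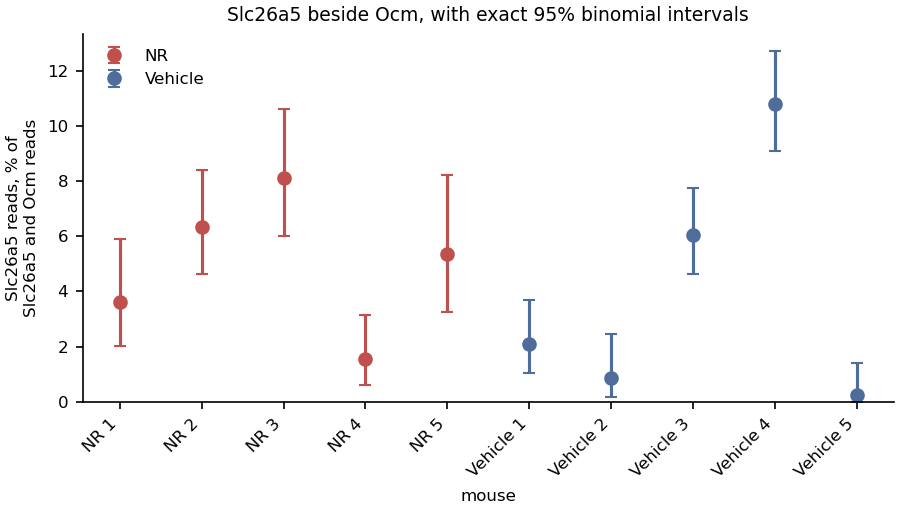
Reads on Slc26a5 as a percent of the reads on Slc26a5 and Ocm together (linear axis from 0) in each mouse, with exact 95% binomial intervals. The share runs from 0.253% in Vehicle 5 to 10.8% in Vehicle 4, and the 5 NR-treated mice lie between 1.54% and 8.09%.

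Strc encodes stereocilin, of the links between outer hair cell stereocilia and of their attachment to the tectorial membrane. Its levels in NR 1 to 5 were 8.42, 13.0, 9.64, 8.16 and 7.51 CPM. Those in Vehicle 1 to 5 were 10.2, 6.99, 21.3, 27.9 and 9.23 CPM. Only Vehicle 3 and 4 lay above every NR-treated mouse, and Vehicle 2 was the lowest of the 10. The log2 fold change was -0.70 with a 95% interval from -1.48 to 0.09 (edgeR, unadjusted p = 0.0778, adjusted p = 0.556). Without these 2 mice it was 0.09 (unadjusted p = 0.647), and under DESeq2 with all mice it was -0.69 (unadjusted p = 0.0462). The edgeR fits without Vehicle 2 (-0.86) and without Vehicle 5 (-0.83) also passed the unadjusted threshold.

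Loxhd1, needed for mechanotransduction in mature hair cells, had 9.77, 16.4, 12.2, 13.8 and 12.4 CPM in NR 1 to 5. It had 15.3, 12.4, 37.0, 40.1 and 16 CPM in Vehicle 1 to 5. Vehicle 3 and 4 lay well above every other mouse, while the other 3 Vehicle mice lay within the NR range. The log2 fold change of -0.90 had a 95% interval from -1.63 to -0.18 (edgeR, unadjusted p = 0.0186, adjusted p = 0.461). It was -0.68 without Vehicle 3 (unadjusted p = 0.0564), -0.65 without Vehicle 4 (unadjusted p = 0.0588) and -0.17 without both (unadjusted p = 0.328), so each of these libraries decided the call; it was also lost, at -0.85 (unadjusted p = 0.0791), without NR 3 and NR 5. An exact two-sided permutation test of the mean log2 CPM, whose smallest possible p is 0.00794, gave p = 0.0873.

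Espn encodes espin, which bundles the actin of the stereociliary core. It was at 39.2, 60.6, 37.0, 46.1 and 40.6 CPM in NR 1 to 5. It was at 47.5, 43.2, 80.0, 76.9 and 47.5 CPM in Vehicle 1 to 5. The NR-treated mice other than NR 2 lay below the Vehicle median, and NR 2 lay above 3 Vehicle mice. The log2 fold change was -0.40 with a 95% interval from -0.85 to 0.04 (edgeR, unadjusted p = 0.0725, adjusted p = 0.548) and -0.04 without Vehicle 3 and 4. It passed the threshold of 0.05, with 1 mouse left out at a time, only when NR 2 (-0.53, unadjusted p = 0.0224) or Vehicle 2 (-0.48, unadjusted p = 0.0387) was the mouse left out.

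Myo15, the motor that delivers cargo to stereocilia tips, followed Vehicle 3 and 4 closely. NR-treated mice had 19.7, 38.6, 26.1, 24.6 and 25.5 CPM in order of their numbers. Vehicle mice had 23.8, 22.3, 69.4, 79.3 and 31.2 CPM. The mean was 26.9 ± 7.00 CPM under NR and 45.2 ± 27.0 CPM in Vehicle (SD, n = 5 each), with a log2 fold change of -0.75 and a 95% interval from -1.55 to 0.05 (edgeR, unadjusted p = 0.064, adjusted p = 0.54). It was 0.07 without Vehicle 3 and 4 (unadjusted p = 0.743), and the threshold was passed under DESeq2 (-0.75, unadjusted p = 0.0319) and when every gene with a read was tested by edgeR (-0.73, unadjusted p = 0.0453). It was passed too in the edgeR fits that left out NR 2 (-0.91), Vehicle 1 (-0.90), Vehicle 2 (-0.91) or Vehicle 5 (-0.86).

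Its cargoes did not share this pattern. Whrn, the whirlin scaffold, had 48.6, 59.7, 60.4, 57.0 and 53.1 CPM in NR 1 to 5 and 35.6, 48.2, 47.1, 78.4 and 61.9 CPM in Vehicle 1 to 5. Vehicle 1 was the lowest and Vehicle 4 the highest mouse, and Vehicle 3 lay below all NR-treated mice. The log2 fold change of 0.04 had a 95% interval from -0.35 to 0.43 (edgeR, unadjusted p = 0.824, adjusted p = 0.954), and it was 0.20 without Vehicle 3 and 4. Eps8, which caps and bundles actin at the tips, had 13.8, 16.3, 11.5, 13.5 and 8.55 CPM under NR and 14.4, 16.2, 15.8, 19.4 and 12.4 CPM in Vehicle. Of the NR-treated mice 4 lay below the Vehicle median, and NR 5 was the lowest of all. The log2 fold change of Eps8 was -0.30 with a 95% interval from -0.67 to 0.07 (edgeR, unadjusted p = 0.106, adjusted p = 0.592), and -0.17 without Vehicle 3 and 4. It passed the unadjusted threshold without NR 2 (-0.39) and with a replicate block (-0.31). Eps8 was the only gene of the 10 whose coefficient of variation was larger in the NR-treated group, 22.7% against 16.4%.

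Triobp, which bundles the actin of the rootlets, and Myo6, the motor at the stereocilia base, were the 2 genes with the most reads, and both are also used outside hair cells. Triobp lay between 76.9 and 88.9 CPM in NR-treated mice and between 71.1 and 107 CPM in Vehicle mice, the top 2 being Vehicle 4 (107 CPM) and Vehicle 3 (98.1 CPM). Its log2 fold change was -0.06 with a 95% interval from -0.30 to 0.18 (edgeR, unadjusted p = 0.591, adjusted p = 0.868) and became 0.14 (unadjusted p = 0.0441) without those 2 mice. Myo6 had 132, 181, 147, 152 and 132 CPM in NR 1 to 5 and 143, 141, 225, 234 and 151 CPM in Vehicle 1 to 5. The log2 fold change of Myo6 was -0.26 with a 95% interval from -0.62 to 0.09 (edgeR, unadjusted p = 0.134, adjusted p = 0.627) and 0.05 without Vehicle 3 and 4. Triobp shared 93 exon bases with Gm10865 on the opposite strand and Strc shared 10 with Ckmt1, under 1% of their exons in each case, and the unstranded counting cannot tell such reads apart.

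**Figure D3:**
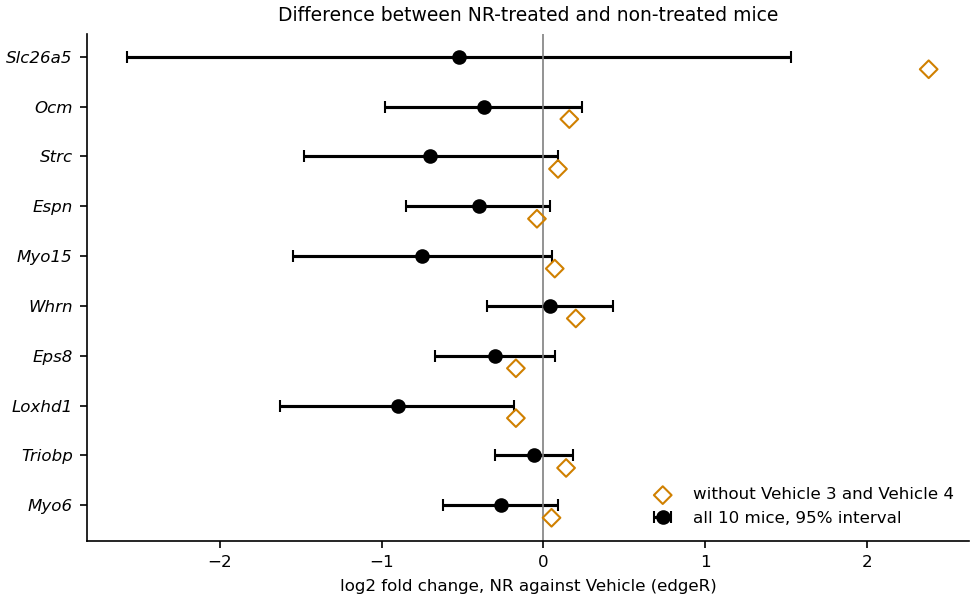
Log2 fold change of each gene, NR against Vehicle, from edgeR with its 95% interval over all 10 mice (black) and the estimate without Vehicle 3 and Vehicle 4 (open diamonds). Over all mice 9 estimates lie below 0 and the interval of Loxhd1 alone excludes 0; without the 2 mice 7 estimates lie above 0.

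Per kilobase of exon, the scale on which genes can be compared, Ocm had the highest level at 34.6 CPM per kb averaged over 10 mice, and Slc26a5 the lowest at 0.484. Ocm stood above 91.8% of tested genes and Slc26a5 above 9.68%. Between them came Myo6 (13.6), Whrn (7.50), Triobp (6.86), Espn (6.27), Myo15 (2.83), Loxhd1 (2.26), Strc (1.96) and Eps8 (1.15). The ranges over mice of Ocm (21.3 to 64.1) and Myo6 (10.9 to 19.3) did not overlap, nor did that of Myo6 with that of Whrn (4.85 to 10.7). Every other pair of neighbours in this order overlapped, including Whrn, Triobp and Espn, and Eps8 (0.692 to 1.57) with Slc26a5 (0.0151 to 1.85). These ranges do not match genes by mouse. Within each mouse, Espn lay above Myo15 and Myo15 above Loxhd1, while the order of the other overlapping neighbours was not the same in all mice.

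The variation between mice of 1 group was larger among Vehicle than among NR-treated mice for 9 of the 10 genes, as it was for 62.5% of all tested genes. With Vehicle 3 and 4 left out, it was so for 3 of the 10, Slc26a5, Ocm and Whrn, and for 46.8% of all tested genes. The mean log2 CPM of the 10 genes was 4.27, 4.88, 4.54, 4.31 and 4.35 in NR 1 to 5. In Vehicle 1 to 5 it was 4.39, 4.11, 5.25, 5.60 and 4.23. Vehicle 4 was among the 2 highest mice for all 10 genes and Vehicle 3 for 8, and within the NR-treated group NR 2 was highest for 8 genes. Over all tested genes, Vehicle 3 and 4 were the 2 highest mice for 11.5%.

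Vehicle 3 and 4 form a cluster of their own for these genes, so correlations were taken over the other 8 mice, on log2 CPM. Of 45 pairs, 39 had a positive Pearson's r, with a median of 0.46 and a range from -0.32 to 0.91. Strc and Ocm were the closest pair, with r = 0.91 (permutation p = 0.00171, adjusted p = 0.0769) and Spearman's rho = 0.79 (permutation p = 0.0276, adjusted p = 0.408); without the 2 mice farthest from the median of Ocm, r was 0.74. Espn and Loxhd1 had r = 0.81 (permutation p = 0.0135, adjusted p = 0.168) and rho = 0.98 (permutation p = 0.00047, adjusted p = 0.0211), and r = 0.94 without the 2 farthest mice. No pair passed an adjusted p of 0.05 in Pearson's r and 1 did in Spearman's rho. Slc26a5 had r = 0.70 with Ocm (permutation p = 0.0515, adjusted p = 0.232; rho = 0.67, permutation p = 0.0829, adjusted p = 0.533) but r = -0.03 with Espn (permutation p = 0.939, adjusted p = 0.939; rho = -0.38, permutation p = 0.359, adjusted p = 0.65). These 8 mice span both groups.

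To compare each gene with the hair cell RNA of its own library, its log2 CPM was taken relative to the mean log2 CPM of the 6 general hair cell markers. That mean was 3.05, 3.55, 3.32, 3.16 and 2.94 in NR 1 to 5 and 3.16, 3.03, 3.90, 4.10 and 3.13 in Vehicle 1 to 5, highest in Vehicle 3 and 4 as for most of the 10 genes. On the relative scale Loxhd1 was 0.25, 0.49, 0.30, 0.64 and 0.69 in NR 1 to 5. It was 0.78, 0.61, 1.31, 1.23 and 0.89 in Vehicle 1 to 5. Of the NR-treated mice 3 lay below all Vehicle mice, and the groups differed by -0.49 (two-sided exact permutation test, p = 0.0238, not adjusted for the 10 genes tested). The difference kept a p under 0.05 when any 1 mouse was left out, between -0.58 and -0.40, but was -0.29 without both Vehicle 3 and 4 (exact permutation test over 56 labelings, p = 0.107).

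With all mice, the other 9 genes did not pass on this scale, with exact permutation p-values from 0.143 for Myo15, at -0.32, to 0.921 for Ocm, at -0.01. With 1 mouse left out, Strc was lower without Vehicle 2 (-0.38, exact permutation test, p = 0.0159). Whrn was higher without Vehicle 5 (0.49, exact permutation test, p = 0.0397). Myo6 and Espn kept the steadiest relation to the hair cell markers along with Ocm: their relative level varied by 0.34, 0.55 and 0.58 log2 units between the lowest and the highest of 10 mice. For Slc26a5 that span was 4.41 log2 units, from -5.98 in Vehicle 5 to -1.57 in Vehicle 4, and the group difference was 0.77 (exact permutation test, p = 0.413). Whrn and Triobp were relatively lower in Vehicle 3 (1.66 and 2.72 log2 units) than in any NR-treated mouse.

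**Figure D4:**
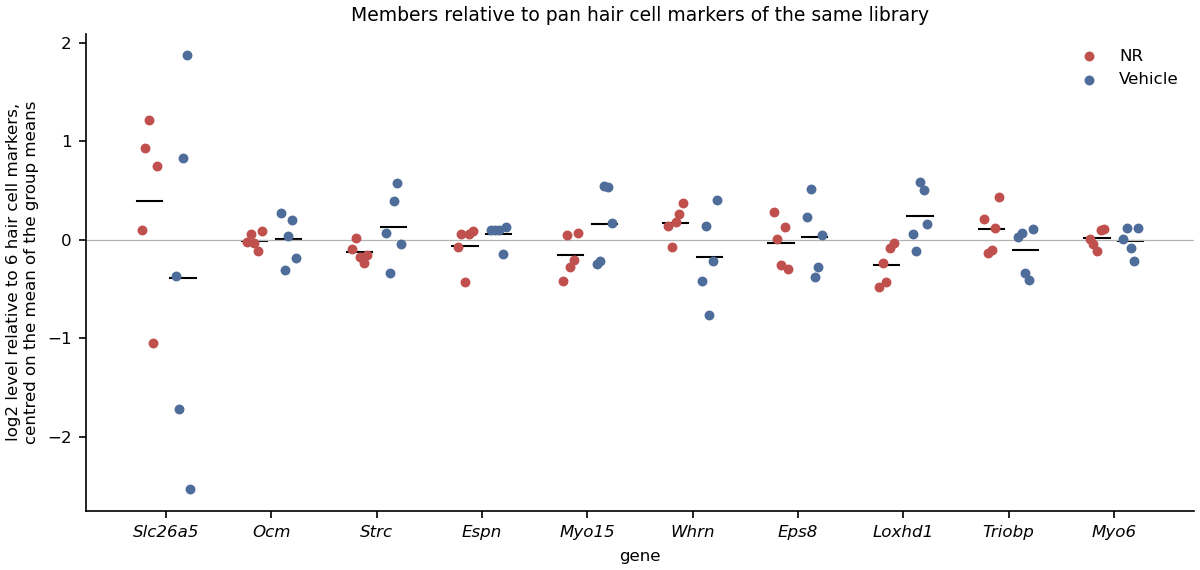
Log2 level of each gene relative to 6 general hair cell markers of the same library, centred for each gene on the mean of its group means, with NR-treated mice in red, Vehicle mice in blue and bars at group means. Slc26a5 spans 4.41 log2 units; Loxhd1 is lower in NR-treated mice by 0.49 log2 units.

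Other genes of the same structures were taken from lists written by hand. Of 44 such genes, each counted once, 34 had a lower and 10 a higher fitted level under NR, with a median log2 fold change of -0.14; 4 were lower and 0 higher at an unadjusted p of 0.05 in edgeR, against 4.88% and 4.83% of all tested genes. Without Vehicle 3 and 4 those numbers became 0 and 3 of 43 tested genes, against 5.58% and 4.11%, with a median of 0.04. The 4 genes were Gfi1, a hair cell transcription factor (-0.50), Pls1, the actin bundler plastin 1 (-0.40), Cdh23, the upper part of the tip link (-0.68), and Tomt, needed to traffic the transduction channel (-0.63), with edgeR adjusted p from 0.473 to 0.499.

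Among 6 genes of outer hair cell channels, receptors and regulators 0 passed in either direction. Chrna10, a subunit of the receptor for efferent acetylcholine, had a log2 fold change of -0.65 (edgeR, unadjusted p = 0.0597, adjusted p = 0.529) and reached 16.7 and 19.2 CPM in Vehicle 3 and 4 against at most 11.2 CPM elsewhere. Lbh, a transcription regulator of outer hair cells, had 0.03.

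Of 16 genes of the actin core and of length control, Pls1 was lower and 0 were higher; the most abundant, Actb and Actg1, which every cell uses, had log2 fold changes of 0.07 and 0.10, and Espnl, an espin-like actin bundler, had -0.67 (edgeR, unadjusted p = 0.054, adjusted p = 0.519). In the tip link and transduction complex 9 of 10 genes had a lower fitted level, 2 of them (Cdh23 and Tomt) at an unadjusted p of 0.05, and the scaffold Ush1c had -0.55 and the calcium-binding Cib2 -0.14. Neither the 5 genes of the stereocilia base and membrane (Rdx -0.09, Clic5 -0.14, Elmod1 -0.23) nor the 5 of the ankle links and the Usher type 2 complex (Adgrv1 -0.43, Pdzd7 -0.12, Vezt 0.14) included one that passed. Vehicle 3 and 4 were the 2 highest mice for 9 of the 10 transduction genes, 8 of the 16 actin genes and 3 of each 5 in the last 2 lists.

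Markers of other cochlear cells moved with these 2 mice too, and their part in the results above was not tested. The 4 inner hair cell markers (Otof, Slc17a8, Tbx2 and Dnajc5b) summed to 172 to 286 CPM in NR-treated and 206 to 440 CPM in Vehicle mice, with Vehicle 3 and 4 highest for all 4. Of these only Tbx2 was lower at an unadjusted p of 0.05 (log2 fold change -0.46, edgeR adjusted p = 0.415), and it was also lower without Vehicle 3 and 4. Tectorial membrane genes, made by supporting cells, were lower under NR for 6 of 6 at an unadjusted p of 0.05 (median log2 fold change -0.92), with sums of 301 to 545 CPM and 389 to 1100 CPM and again Vehicle 3 and 4 highest for all 6; without these 2 mice 0 of 6 passed, at a median of -0.36. Strial marginal cell markers were lower for 3 of 4 (2000.0 to 2630.0 and 2430.0 to 4340.0 CPM) and 0 of 4 without the 2 mice. Of 8 supporting cell markers 2 were lower and 1 was higher, with sums of 434 to 484 CPM and 351 to 606 CPM, but without the 2 mice 1 was lower (Emilin2) and 2 were higher (Fgfr3 and Epyc).

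The neuronal markers ran the other way, with sums of 1490.0 and 1760.0 CPM in Vehicle 3 and 4 against 2070.0 to 2830.0 CPM in the other 8 mice, and 1 of 4, Tubb3, was higher under NR with and without Vehicle 3 and 4. RNA of markers of tissue from outside the cochlear epithelium differed between the groups as well, at an unadjusted p of 0.05 in edgeR. At an adjusted p of 0.05 in edgeR, 0 of the muscle and adipocyte markers passed, as did 0 of all tested genes. Skeletal muscle markers were higher under NR for 5 of 6. Their sums were 14.4 to 632 CPM in NR-treated and 13.3 to 63.5 CPM in Vehicle mice. NR 3, 4 and 5 lay above the Vehicle range, and NR 1 and 2 (14.4 and 25.1 CPM) within it. Adipocyte markers were higher for 3 of 4 (Plin1, Cidec and Fabp4, but not Adipoq), at 50.5 to 179 and 15.3 to 56.1 CPM. Without Vehicle 3 and 4 the numbers were 4 of 6 and 2 of 4, the latter Plin1 and Cidec. Both genes are described by the study as raised by NR in the cochlea. It names them among its top changed genes, with an adjusted p of 0.05 as cutoff, and reports an increase by RT-PCR. Whether the marker RNA reflects more muscle or fat tissue was not tested. Bone (136 to 291 and 123 to 242 CPM), erythroid (6310.0 to 11100 and 3470.0 to 14900 CPM) and myelinating glia markers (3240.0 to 4640.0 and 3400.0 to 4330.0 CPM) had 0 genes past an unadjusted p of 0.05. Vestibular epithelium markers (19.9 to 31.6 and 21.6 to 41.0 CPM) had 1 lower of 4, Otol1, and 0 without Vehicle 3 and 4, and B cell and neutrophil markers (905 to 2890.0 and 923 to 2380.0 CPM) 1 lower of 5, Ighm, which was also lower without them.

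**Figure D5:**
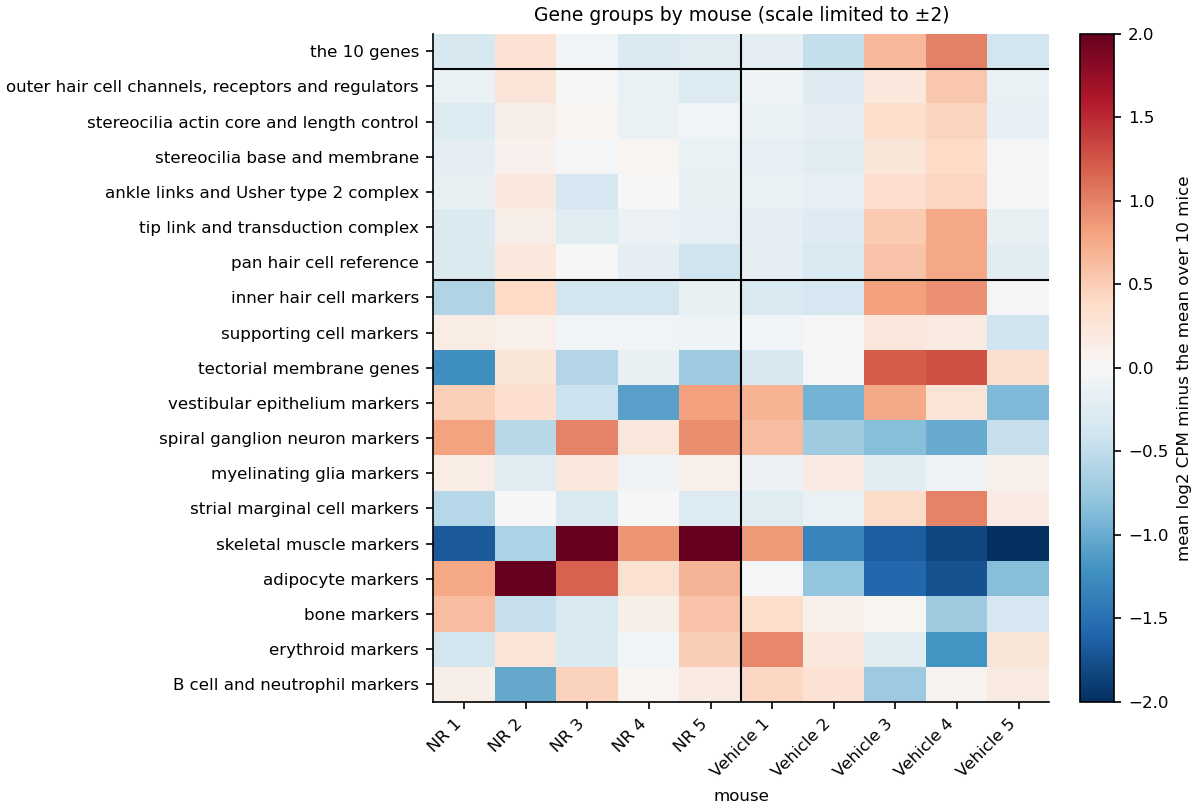
Mean log2 CPM of the 10 genes (top), of the lists of related hair cell genes (middle) and of markers of other cells (bottom) in each mouse, minus the mean over all 10 mice; colours stop at 2 log2 units in each direction. Vehicle 3 and 4 are high for the 10 genes and every list of the middle block, and for inner hair cell, tectorial membrane and strial marginal cell genes. For spiral ganglion neuron markers they are lowest, with a mean log2 CPM of 7.11 and 6.95. Vehicle 2 (7.24), NR 2 (7.40) and Vehicle 5 (7.50) are close to them in that row.

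By their profile over the 10 mice, on log2 CPM, the genes most like Slc26a5 were Hsd11b1 (Pearson's r = 0.96), Myo3a (0.95), Gm5737 (0.95), Lclat1 (0.93) and Sh3gl3 (0.93), with Spearman's rho from 0.93 to 0.98 and r from 0.88 to 0.95 over the 8 mice without Vehicle 3 and 4. These are the top 5 of all tested genes outside the 10 and describe the same libraries, with Slc26a5 itself at 1 to 129 reads. They were picked for a high r over these 10 mice, which include the cluster of Vehicle 3 and 4. Their rho and their r over the 8 mice are therefore high by selection and are no separate check. Myo3a, a myosin of stereocilia tips, was also on the list of actin core genes. Their levels differed in scale, from 0.325 to 1.98 CPM for Myo3a to 23.7 to 31.1 CPM for Lclat1, and none passed an unadjusted p of 0.05 between the groups, with edgeR log2 fold changes between -0.35 (Gm5737) and 0.00 (Sh3gl3).

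In mm10 coordinates of the files, Slc26a5 lies on chromosome 5 from 21810655 to 21865604, Ocm on chromosome 5 from 144019804 to 144026670, Strc on chromosome 2 from 121363728 to 121387168 and Espn on chromosome 4 from 152120331 to 152152371. Myo15 lies on chromosome 11 from 60469339 to 60528369, Whrn on chromosome 4 from 63414910 to 63495991, Eps8 on chromosome 6 from 137477245 to 137654876, Triobp on chromosome 15 from 78947724 to 79005869, Myo6 on chromosome 9 from 80165031 to 80311729 and Loxhd1 on chromosome 18. All are annotated as protein-coding, and each count covers the exons of the whole gene, so isoforms were not told apart.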

How the data were processed

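Whole cochleae of mtKeima mice aged 12 months were profiled by RNA-seq, with 1 library per mouse and 5 mice per group. The values deposited by the authors were read counts per gene without normalization, which Novogene made from poly(A) libraries of a kit that does not mark strand. The submitters' notes name fastp, CASAVA, STAR version 2.6.1d with mm10, featureCounts version 1.5.0 and DESeq2 version 1.26.0; per the methods STAR allowed 2 mismatches and counting used default settings. The annotation release is not given in the sources used here. The study kept genes at an unadjusted p of 0.05. Library totals of 17060379 to 24419230 leave Slc26a5 at 1 to 129 reads, so its values carry large counting error, whereas the other 9 genes had at least 130 reads in every library.

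Counts were normalized with TMM, filtered with filterByExpr and tested with the quasi-likelihood test of edgeR version 4.0.16 (glmQLFit and glmQLFTest, R version 4.3.3) over 18329 genes, NR against Vehicle without covariates, with Benjamini-Hochberg adjustment over all tested genes. The test was tested on simulated counts. CPM used TMM library sizes, and log2 CPM a prior count of 2. Exact permutation tests were two-sided over all labelings of the mice, and correlations used 100000 permutations (python version 3.11.15, scipy version 1.17.1). No pair of libraries agreed within sampling noise. The replicate numbers were not used to pair the mice, except in the fit with a replicate block. Promoter windows came from RefSeq on GRCm38.p6, exons from GENCODE.

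The 10 genes and all lists were chosen with earlier results of these data known, so their choice is not independent of the data. All 10 genes are named; of every other list the rule names the 2 most abundant genes and the 2 with the lowest p, and the 5 genes most correlated with Slc26a5. A gene that this rule would name is not reported here. Other list members named were chosen after their values were seen. Alternatives were DESeq2 version 1.42.0, its size factors, a filter of 1 read in all or of 1 CPM in 5 samples, robust dispersion, a replicate block, another hair cell reference, a prior count of 0.5, and leaving out each mouse. Leaving out Vehicle 3 and 4, or NR 3 and 5, was added after seeing the data.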

Additional observations from a re-analysis of the deposited data

How the results depend on the processing

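With all mice 1 of the 10 genes was lower in NR-treated mice at an unadjusted p of 0.05 and 0 were higher, against 4.88% and 4.83% of all tested genes. The number lower was 3 under DESeq2, against 1021 of 33153 tested genes. It was 2 when every gene with at least 1 read was tested, against 1066 of 33224, and 0 without NR 3 and NR 5, against 383 of 18732. Without Vehicle 3 and 4 it was 0, against 5.58% of all tested genes, and 2 genes were higher, against 4.11%. The median log2 fold change of the 10 genes was then 0.08 in place of -0.39. Leaving out 1 mouse at a time gave 0 to 4 lower genes. The number was 4 without NR 2 (1026 of 18586 tested genes) or Vehicle 2 (932 of 18526). It was 0 without Vehicle 3 (558 of 18512) or Vehicle 4 (763 of 18508), where Loxhd1 was lost. The number at an adjusted p of 0.05 and the number of genes without overlap remained 0 under each alternative that was run. The cause of these changes was not tested. Without Vehicle 3 and 4 the log2 fold change reversed for Slc26a5 (2.38), Ocm (0.16), Strc (0.09), Myo15 (0.07), Triobp (0.14) and Myo6 (0.05). All of these genes were highest in the 2 mice left out, which by itself moves the difference upward. When 1 mouse was left out, it ranged from -0.83 to 0.64 for Slc26a5, -0.07 to 0.21 for Whrn and -0.11 to 0.03 for Triobp.

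The replicate numbers are shared by the groups, but same-numbered mice did not deviate together (r from -0.22 to 0.17 over 5 pairs, 2 of them above 0.1). Over the 20 pairs with other numbers r ran from -0.39 to 0.28, with 7 above 0.1. Shared handling by number was not tested. With the number as a replicate block, 2 genes were lower, Eps8 and Loxhd1, against 776 of 18329 tested genes. The log2 fold change of Slc26a5 was then 0.42.

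Relative to hair cell markers, differences near 0 changed sign: with Myo7a and Pou4f3 as the reference, Ocm had 0.11, Espn 0.01 and Eps8 0.06; without Vehicle 3 and 4, Ocm had 0.07 and Myo6 -0.07. With 1 mouse left out, Ocm ranged from -0.09 to 0.06, Eps8 from -0.16 to 0.07 and Myo6 from -0.03 to 0.06. Depth limits Slc26a5 most, with 1 read in Vehicle 5 and 3 in Vehicle 2. Of the other recomputed values for single genes, 266 kept their direction and side of the threshold, 15 gained significance at an unadjusted p of 0.05 in the same direction and 5 lost it.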
